A study of Adonis amurensis with 6 samples.

Results

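Open late flowers were set against closed flower buds of Adonis amurensis, a perennial of the buttercup family that flowers in early spring. The late side holds the full bloom library (FBS) and the senescing flower library (SFS), and the bud side holds the young alabastrum library (YA) and the visible color alabastrum library (VCA), alabastrum being a botanical word for a flower bud. The labels give the tissue as flower for FBS and SFS and as flower bud for YA and VCA. The early flowering stage (EFS), also labelled flower, lies between the sides and is given beside them, and the flower bud differentiation library of the 6-library series was left out. The plants were grown in an open field with no treatment named, the stages were collected at the same time, and RNA came from whole floral organs. The genotype and the number of plants behind a library are not stated in the sources.

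The values are FPKM, a measure of fragments scaled by transcript length and by the mapped reads of the library, of unigenes, the clustered contigs of a de novo assembly. Of 190353 unigenes, 68906 carried an Arabidopsis locus number (an At-number) from their match in KOG, a set of eukaryotic ortholog groups, and the FPKM of these were summed to 11934 loci. A locus therefore stands for all Adonis contigs whose best match it is, paralogs included, and the Swiss-Prot name given with it is that of its most abundant named unigene. A locus was tested where its sum reached 5 FPKM in at least 1 of the 4 libraries, which 8574 loci did. It was called where both late values lay on the same side of both bud values and the mean of log2(sum + 0.1) differed by 2-fold or more. This log2 difference, late minus bud, is positive where late flowers were higher, and it understates the change of loci near 0.

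Every stage was sequenced as 1 library, and the pair of libraries on a side are different stages rather than replicates. No SD, SE or p-value was therefore calculated, a call has no replicate check, and the gap between the libraries of a side is given as the only measure of spread. The depth behind an FPKM is unknown. In RNA from whole organs, fewer cells of a type and less RNA per cell cannot be told apart.

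A flower bud is a growing organ: its cells divide, copy and pack DNA and build ribosomes, while the tapetum of the anther feeds and coats the young pollen. When the flower opens, petals and filaments grow by cell expansion, which needs enzymes that loosen the cell wall, and later the petals recycle protein, lipid and chloroplast material through autophagy and vacuolar proteases. Auxin, ethylene, gibberellin and jasmonate act at various points of this course, and pigments and volatiles made in petals attract pollinators.

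Of the 8574 loci, 940 were called higher (11% of the loci tested) and 2249 lower (26.2%) in late flowers, so 3189 (37.2%) were called in either direction. The late and bud values of 5904 loci (68.9%) did not overlap. The median log2 difference over all tested loci was -0.39, and changes are best read against this shift. Scaling each library by its total FPKM over loci left it at -0.35, with 967 loci higher and 2161 lower. Scaling by the median ratio over loci above 0 in all 5 libraries moved it to 0.05 and evened the split to 1483 loci higher and 1400 lower. For the gene lists below, counts and medians under this median-ratio scaling follow those of the deposited values in brackets, marked "scaled", with the minimum sum applied to the scaled values. Of the 25 lists with a median below 0 by the deposited values, 7 stayed below 0 and 18 turned above 0 when scaled.

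**Figure D1:**
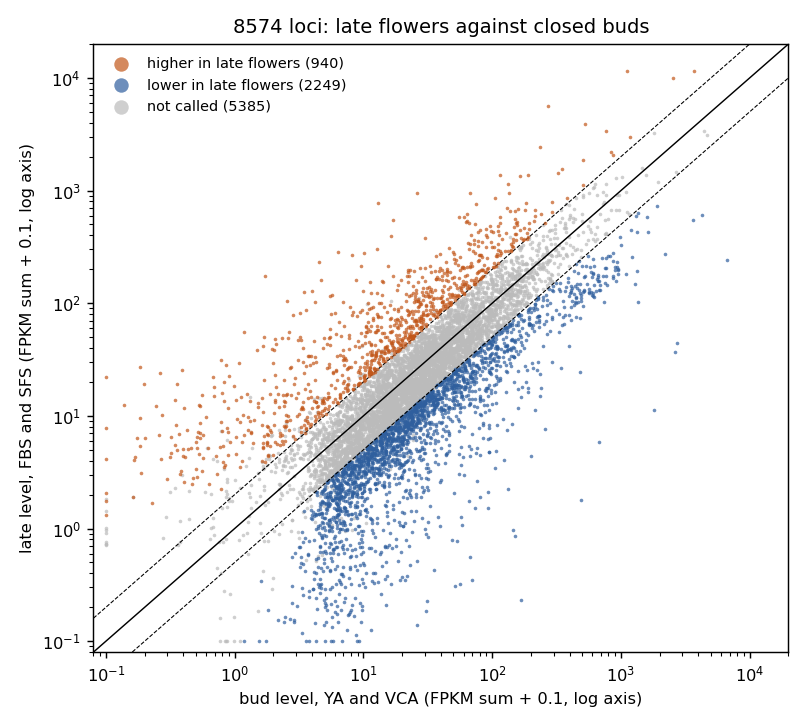
Late level (FBS and SFS, vertical) against bud level (YA and VCA, horizontal) of the 8574 loci tested, each level being the mean on the log2(sum + 0.1) scale returned to FPKM, with 0.1 added and both axes logarithmic. The solid line marks equal levels and the dashed lines the 2-fold threshold, and more points lie below the lower dashed line (2249 lower) than above the upper one (940 higher).

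The differences were often larger than the threshold: 396 of the higher loci and 807 of the lower loci differed by 4-fold or more, and 78 and 176 by 16-fold or more. The nearest late and bud libraries were themselves 2-fold apart in 525 of the higher loci (55.9%) and in 1304 of the lower loci (57.98%). Within the late side, SFS was 2-fold or more above FBS in 167 and below it in 85 of the higher loci, whereas among the lower loci it was above in 195 and below in 520. Within the bud side, VCA was 2-fold or more above YA in 101 and below it in 112 of the lower loci. At the threshold, At3g10840 was just outside with a log2 difference of 0.997 (7.08 and 5.85 FPKM in FBS and SFS, against 3.10 and 3.25 FPKM in YA and VCA). At4g17920, named RING-H2 finger protein ATL29, was just inside at 1.002 (5.15 and 9.29 FPKM in FBS and SFS, against 2.75 and 4.21 FPKM in YA and VCA). On the lower side, the response regulator ARR12 (At2g25180) was just outside, at 5.70 and 6.29 FPKM in FBS and SFS, against 13.4 and 10.8 FPKM in YA and VCA (log2 difference -1.0). Adenine phosphoribosyltransferase 2 (At5g11160) was just inside, at 3.06 and 4.64 FPKM in FBS and SFS, against 6.95 and 8.40 FPKM in YA and VCA (log2 difference -1.0).

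EFS, which the rule did not use, mostly fell between the sides. It lay strictly between all bud and late values in 485 of the higher loci (51.6%) and 1537 of the lower loci (68.3%). It was still at bud level in 223 of the higher loci (23.7%) and 263 of the lower loci (11.7%), and at or beyond a late value in 232 (24.7%) and 449 (19.96%). On a scale where 0 is the bud level and 1 the late level, its median position was 0.45 for higher loci and 0.49 for lower loci.

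**Figure D2:**
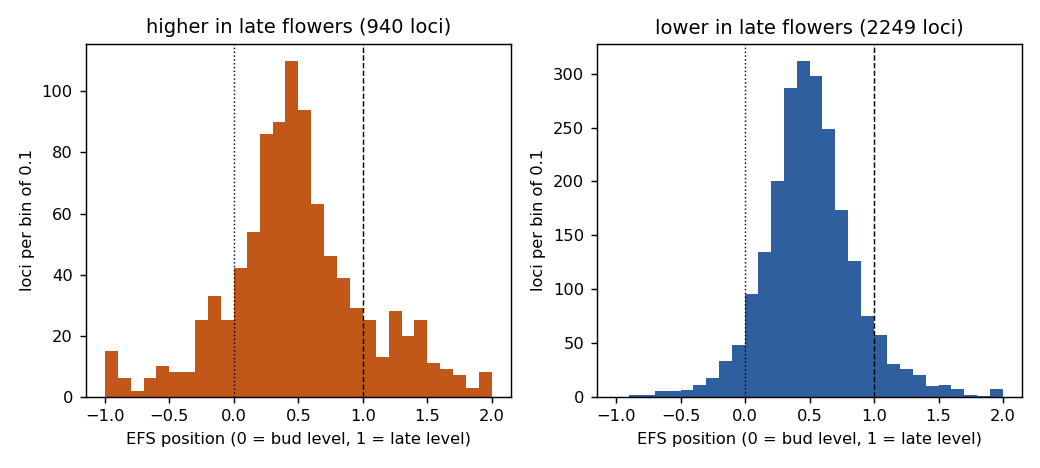
Position of EFS between the bud level (0, dotted line) and the late level (1, dashed line) on the log2 scale, for the 940 loci higher in late flowers (left) and the 2249 lower loci (right), as loci per bin of 0.1. Both distributions peak near the middle (medians 0.45 and 0.49), and 23 loci outside the plotted range are drawn in the outermost bins.

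The floral origin of the libraries was checked with MADS-box and related organ identity genes. The list of 14 tested loci summed to 1440 and 1117 FPKM in FBS and SFS, against 1853 and 1886 FPKM in YA and VCA, with 1424 FPKM in EFS. The most abundant was the PISTILLATA-type B-class locus At5g20240 (Floral homeotic protein PMADS 2), which sets petal and stamen identity, at 784 and 576 FPKM in FBS and SFS, against 1007 and 940.4 FPKM in YA and VCA (log2 difference -0.53), and it was not called. Its B-class partner At3g54340 (PMADS 1, APETALA3-type) was lower, at 84.7 and 61.9 FPKM in FBS and SFS, against 189 and 196 FPKM in YA and VCA (log2 difference -1.41), or -0.996 with median-ratio scaling, where the call was lost. AGAMOUS (At4g18960), the C-class gene of stamens and carpels, had 10.04 and 38.6 FPKM in FBS and SFS, against 149.7 and 146 FPKM in YA and VCA, with 28.9 FPKM in EFS (log2 difference -2.90). The E-class type At1g24260 (AGL9 homolog) stood at 94.5 and 105 FPKM in FBS and SFS, against 116 and 121 FPKM in YA and VCA (log2 difference -0.25). In the list, 1 of 14 loci were higher and 5 lower (scaled, 2 and 4), with a median log2 difference of -0.45 (scaled, 0.05), or a scaled median of -0.04 over the same 14 loci. The shares were 7.14% and 35.7%, against 11% and 26.2% of all loci. The 1 higher locus was At2g41990, named AGL61, at 5.78 and 7.31 FPKM in FBS and SFS, against 2.14 and 1.16 FPKM in YA and VCA (log2 difference 1.97). The other lower loci were low throughout, with no value above 13.1 FPKM: At1g22130 (named AGL11), At5g13790 (named AGL15) and At2g22540 (named JOINTLESS). Such Swiss-Prot names need not be those of the Arabidopsis gene behind the At-number, so these low loci do not bear on organ identity.

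Markers of pollen and tapetum, green tissue and seeds, which whole flowers can hold in changing amounts, moved as follows. Of pollen and tapetum genes, 5 of 19 loci were higher and 2 lower (scaled, 8 and 1), with a median log2 difference of 0.15 (scaled, 0.56). The shares were 26.3% and 10.5%, against 11% and 26.2% of all loci. The list summed to 1839 and 2163 FPKM in FBS and SFS, against 1954 and 1575 FPKM in YA and VCA. The pollen-specific extensin-like protein 3 (At2g15880), a wall protein of pollen tubes, had 384 and 434 FPKM in FBS and SFS, against 119.6 and 188 FPKM in YA and VCA, with 830.0 FPKM in EFS (log2 difference 1.44), and EFS was highest. Cytochrome P450 704C1 (At2g45510) had 368 and 575 FPKM in FBS and SFS, against 279.5 and 133 FPKM in YA and VCA (log2 difference 1.26), but was not called without VCA (0.72) or without SFS (0.93). Pollen-specific protein SF21 (At5g56750) had 67.8 and 90.5 FPKM in FBS and SFS, against 32.7 and 36.7 FPKM in YA and VCA (log2 difference 1.17), and 0.97 without SFS. The KOG texts of At2g45510 and At5g56750 name broad protein families and no pollen or tapetum protein. The 2 lower loci were At1g76010, named anther-specific protein APG although its KOG text names no anther protein, at 124 and 76.2 FPKM in FBS and SFS, against 255 and 278 FPKM in YA and VCA (log2 difference -1.45), and the extensin-like At4g33970, at -1.39. Light-harvesting and photosystem genes summed to 3289 and 11136 FPKM in FBS and SFS, against 6264 and 9308 FPKM in YA and VCA, so the sides overlapped. Cold, dehydration and seed proteins, among them oleosins and vicilins, summed to 7276 and 3219 FPKM in FBS and SFS, against 6481 and 5395 FPKM in YA and VCA. These lists follow Swiss-Prot names, so genes of these tissues under other names are not in them. The part of these tissues in the results below was not tested.

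**Figure D3:**
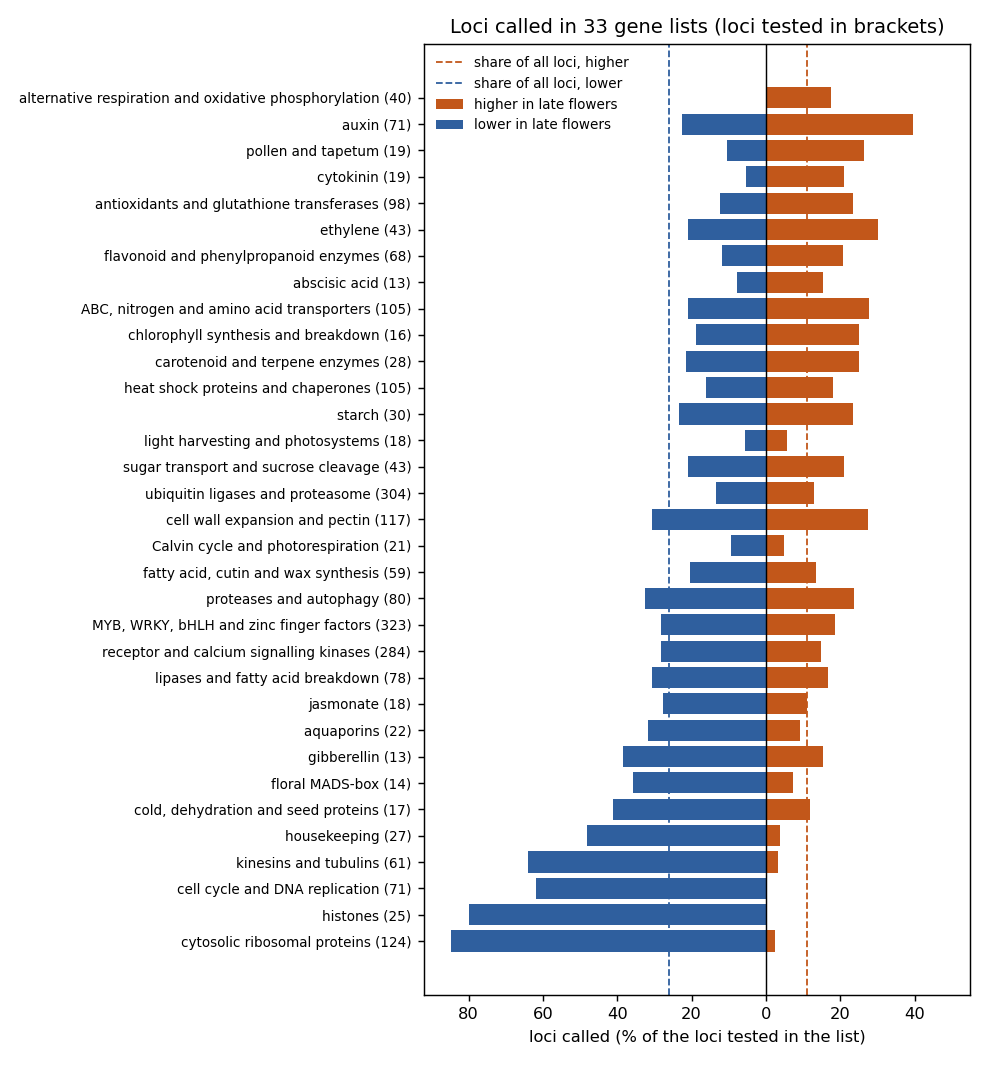
Share of tested loci called higher (orange, right) or lower (blue, left) in late flowers for 33 gene lists, with the number of loci tested in brackets and dashed lines at the shares of all loci (11% higher, 26.2% lower). Ribosomal proteins and histones stand farthest left, and auxin has the longest bar to the right, with 28 of 71 loci higher.

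Of the 33 lists, cytosolic ribosomal proteins had the most lower loci. Of cytosolic ribosomal proteins, 3 of 124 loci were higher and 105 lower (scaled, 4 and 98), with a median log2 difference of -1.94 (scaled, -1.50). Together they took 3.80% and 2.07% of the FPKM of all loci in FBS and SFS, against 9.25% and 11.4% in YA and VCA, with 6.16% in EFS. The 105 lower loci spanned log2 differences of -4.83 to -1.18. The most abundant on the bud side was At4g27090 (60S ribosomal protein L14), at 538 and 341 FPKM in FBS and SFS, against 1308 and 1361 FPKM in YA and VCA, with 682 FPKM in EFS (log2 difference -1.64). 60S ribosomal protein L23 (At2g33370) had 205 and 185 FPKM in FBS and SFS, against 1072 and 1629 FPKM in YA and VCA, with 583 FPKM in EFS (log2 difference -2.76). The stalk proteins P0 (At2g40010) and P1 (At5g47700), which help to recruit elongation factors, differed by -2.24 and -1.44 on the log2 scale. In all 4 the late libraries lay below EFS, and EFS below the buds. The 3 higher loci were of low level: At2g37190 (60S ribosomal protein L12, at most 25.3 FPKM), At1g58380 (40S S2-1) and At5g02450 (60S L36-3). In the KOG class for translation, 4 of 408 loci were higher and 210 lower (51.5%), and elongation factor 1-alpha (At1g07920), which brings aminoacyl-tRNA to the ribosome, stood at 799.8 and 668 FPKM in FBS and SFS, against 1964 and 1829 FPKM in YA and VCA (log2 difference -1.37), or -0.96 with median-ratio scaling, where it was no longer called. Another elongation factor 1-alpha locus, At1g07940, had 249.8 and 82.9 FPKM in FBS and SFS, against 671 and 894 FPKM in YA and VCA (log2 difference -2.43).

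Contigs of 1 gene family can fall to different loci, as they did for the G-protein beta-like (RACK1-type) ribosome scaffold. At1g18080 had 0.44 and 0.09 FPKM in FBS and SFS, against 50.9 and 62.6 FPKM in YA and VCA, with 0.93 FPKM in EFS (log2 difference -7.46), which placed it among the 8 largest falls (those of loci named in Swiss-Prot with a level of 50 FPKM or more on the higher side, the limit also used for the 8 largest rises). Its sister At1g48630, of the same KOG group and chosen after values were seen, was far more abundant, at 179.6 and 90.8 FPKM in FBS and SFS, against 455 and 592 FPKM in YA and VCA, with 285 FPKM in EFS (log2 difference -2.02). Both were lower in late flowers, by very different amounts.

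Histones, which package newly copied DNA, were lower in most cases. Of the loci listed as histones by Swiss-Prot name, 0 of 25 were higher and 20 lower (scaled, 0 and 17), with a median log2 difference of -2.52 (scaled, -2.11). Their sum was 3941 and 3517 FPKM in FBS and SFS, against 26112 and 31177 FPKM in YA and VCA, with 8946 FPKM in EFS. Whether At2g33840 (-1.03) and At1g62390 (-1.12), both counted lower, encode histones was not tested. Nor was it for At5g01510 (0.34) and At5g01990 (0.32), which were not called. Histone H2A (At5g02560) had 213 and 269.6 FPKM in FBS and SFS, against 5852 and 7668 FPKM in YA and VCA, with 1603 FPKM in EFS (log2 difference -4.80). Histone H3.2 (At5g65360), the variant deposited during DNA replication, had 46.8 and 42.1 FPKM in FBS and SFS, against 2585 and 2923 FPKM in YA and VCA, with 570.0 FPKM in EFS (log2 difference -5.95). Histone H3.2 at At3g27360 stood at 33.3 and 40.96 FPKM in FBS and SFS, against 2279 and 3023 FPKM in YA and VCA (log2 difference -6.15). By contrast histone H3.3 (At4g40030), the variant deposited outside replication, had 657 and 618 FPKM in FBS and SFS, against 1471 and 1234 FPKM in YA and VCA, with 672 FPKM in EFS (log2 difference -1.08), and its call was lost without YA (-0.95) and with median-ratio scaling (-0.67). The At3g27360 and H3.3 loci were chosen after values were seen. Histone H2B.7 (At3g46030) had 553 and 543 FPKM in FBS and SFS, against 3342 and 3906 FPKM in YA and VCA (log2 difference -2.72). Histone H4 (At1g07660) had 829.9 and 443 FPKM in FBS and SFS, against 4022 and 4561 FPKM in YA and VCA (log2 difference -2.82), but its highest single unigene went the other way (0.64).

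Genes of the cell cycle and DNA replication were also lower. Here 0 of 71 loci were higher and 44 lower (scaled, 2 and 34), with a median log2 difference of -1.66 (scaled, -1.09). Cyclin-D3-1 (At4g34160), which drives entry into the cycle, had 15.3 and 13.97 FPKM in FBS and SFS, against 179 and 156 FPKM in YA and VCA, with 59.96 FPKM in EFS (log2 difference -3.50). PCNA (At2g29570), the sliding clamp of DNA polymerase, had 21.1 and 7.76 FPKM in FBS and SFS, against 98.4 and 116 FPKM in YA and VCA, with 33.7 FPKM in EFS (log2 difference -3.05). The replicative helicase subunit MCM7 (At4g02060) had 3.94 and 17.02 FPKM in FBS and SFS, against 77.1 and 94.7 FPKM in YA and VCA, with 23.4 FPKM in EFS (log2 difference -3.36), and SFS was above FBS there. DNA topoisomerase 2 (At3g23890), which untangles chromosomes, had 21.9 and 8.61 FPKM in FBS and SFS, against 91.7 and 79.4 FPKM in YA and VCA (log2 difference -2.63). None of the 71 loci tested was higher by the deposited values, and 2 were with median-ratio scaling.

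Microtubule genes, which build spindles as well as the interphase array, were lower too. Of kinesins and tubulins, 2 of 61 loci were higher and 39 lower (scaled, 3 and 30), with a median log2 difference of -1.41 (scaled, -1.01). Tubulin alpha chain At5g19770 had 412 and 262 FPKM in FBS and SFS, against 1074 and 941 FPKM in YA and VCA, with 958 FPKM in EFS (log2 difference -1.61), so EFS was still at bud level. A similar alpha chain locus, At5g19780, had 350.4 and 196 FPKM in FBS and SFS, against 852 and 744 FPKM in YA and VCA (log2 difference -1.60), and near-identical tubulins can share reads. Tubulin beta-2 (At5g62700) and beta-4 (At5g12250) differed by -1.75 and -1.85 on the log2 scale. The 2 higher loci were kinesins, motor proteins that walk on microtubules: Kinesin-4 (At5g27000) and KP1 (At1g63640). Kinesin-4 had 112 and 93.8 FPKM in FBS and SFS, against 20.8 and 29.1 FPKM in YA and VCA, with 220.4 FPKM in EFS (log2 difference 2.06). KP1 had 38.6 and 40.03 FPKM in FBS and SFS, against 18.1 and 19.9 FPKM in YA and VCA, with 80.2 FPKM in EFS (log2 difference 1.05). EFS was the highest of the 5 libraries for both, and both kinesins were chosen after values were seen. The KP1 call was lost without YA (0.98).

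**Figure D4:**
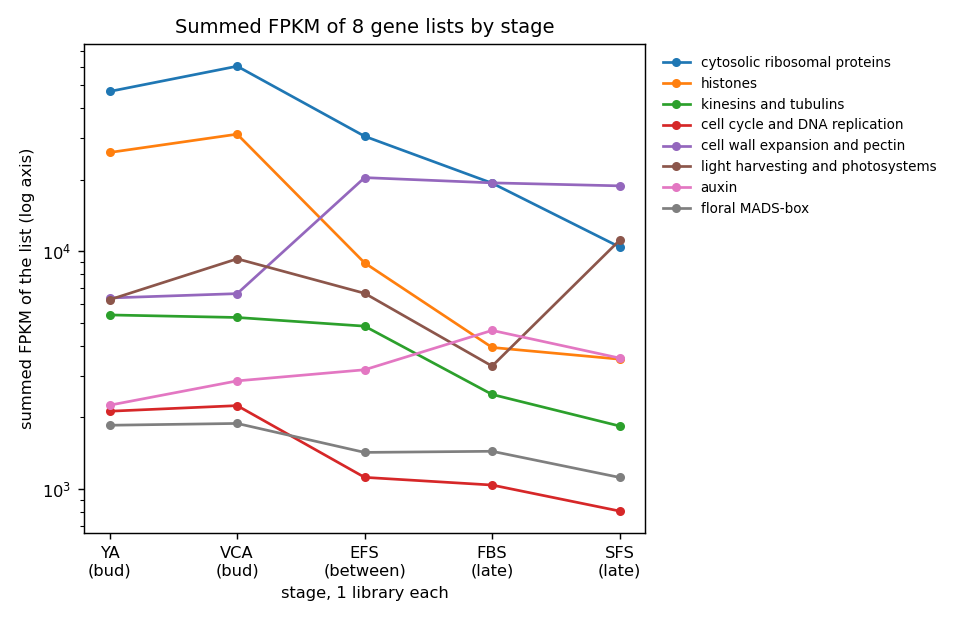
Summed FPKM of 8 gene lists (logarithmic vertical axis) in the 5 stages in developmental order, 1 library each. Ribosomal proteins reach 60263 FPKM in VCA and 10444 FPKM in SFS, cell wall genes reach 20460 FPKM in EFS, and light-harvesting genes are lowest in FBS (3289 FPKM) and highest in SFS (11136 FPKM).

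The 8 largest falls included lipid-related, wall-sensing, defence-related and seed-type proteins. Non-specific lipid-transfer protein A (At3g51590), a small secreted lipid carrier, had 0.43 and 0 FPKM in FBS and SFS, against 70.2 and 393 FPKM in YA and VCA, with 0.78 FPKM in EFS (log2 difference -9.50). The receptor-like kinase PERK4 (At2g18470), of a family that senses the cell wall, had 1.22 and 2.35 FPKM in FBS and SFS, against 425 and 561 FPKM in YA and VCA, with 186 FPKM in EFS (log2 difference -8.09). The GDSL esterase At5g33370, of a lipase family that acts on cuticle and surface lipids, had 3.78 and 32.9 FPKM in FBS and SFS, against 1639 and 1962 FPKM in YA and VCA, with 606 FPKM in EFS (log2 difference -7.31), and it stood out by its level as well as its difference. Thaumatin-like protein (At1g18250) had 0.30 and 0.20 FPKM in FBS and SFS, against 82.97 and 57.4 FPKM in YA and VCA (log2 difference -7.64). Osmotin-like protein (At2g28790), of the same defence-related family, had 0.47 and 1.18 FPKM in FBS and SFS, against 124 and 179 FPKM in YA and VCA (log2 difference -7.45). In the lipid-transfer protein and PERK4, FBS and SFS were both under 3 FPKM.

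Reserve and desiccation proteins were split. In the list of cold, dehydration and seed proteins, 2 of 17 loci were higher and 7 lower (scaled, 2 and 7), with a median log2 difference of -0.99 (scaled, -0.58). The shares were 11.8% and 41.2%, against 11% and 26.2% of all loci. Vicilin-like protein 2-2 (At2g28490), of a seed storage family, had 0.63 and 1.20 FPKM in FBS and SFS, against 172 and 122 FPKM in YA and VCA, with 2.03 FPKM in EFS (log2 difference -7.21). 1-Cys peroxiredoxin (At1g48130), an antioxidant known from seeds and counted with the antioxidants, had 0.09 and 0.41 FPKM in FBS and SFS, against 57.1 and 45.4 FPKM in YA and VCA, with 0.64 FPKM in EFS (log2 difference -7.36). Oleosin Bn-III (At3g18570), a coat protein of oil bodies, had 0.66 and 2.99 FPKM in FBS and SFS, against 71.8 and 75.7 FPKM in YA and VCA (log2 difference -5.59), and the vicilin, peroxiredoxin and oleosin were each below 3 FPKM in both late libraries. Oleosin 1 (At2g25890) had 0.20 and 0 FPKM in FBS and SFS, against 3.57 and 10.4 FPKM in YA and VCA (log2 difference -5.16), and its call was lost without VCA, where no value reached 5 FPKM. Both oleosins were chosen after values were seen. The LEA group 3 protein At5g38760 was far more abundant, at 134 and 161 FPKM in FBS and SFS, against 939.6 and 1790.5 FPKM in YA and VCA, with 1196 FPKM in EFS (log2 difference -3.14). LEA protein D-7 (At1g52690) went the other way, at 254 and 62.1 FPKM in FBS and SFS, against 3.74 and 2.96 FPKM in YA and VCA, with 12.1 FPKM in EFS (log2 difference 5.20). So did LEA protein 2 (At4g13560), at 25.6 and 8.32 FPKM in FBS and SFS, against 0.94 and 1.10 FPKM in YA and VCA (log2 difference 3.72).

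**Figure D5:**
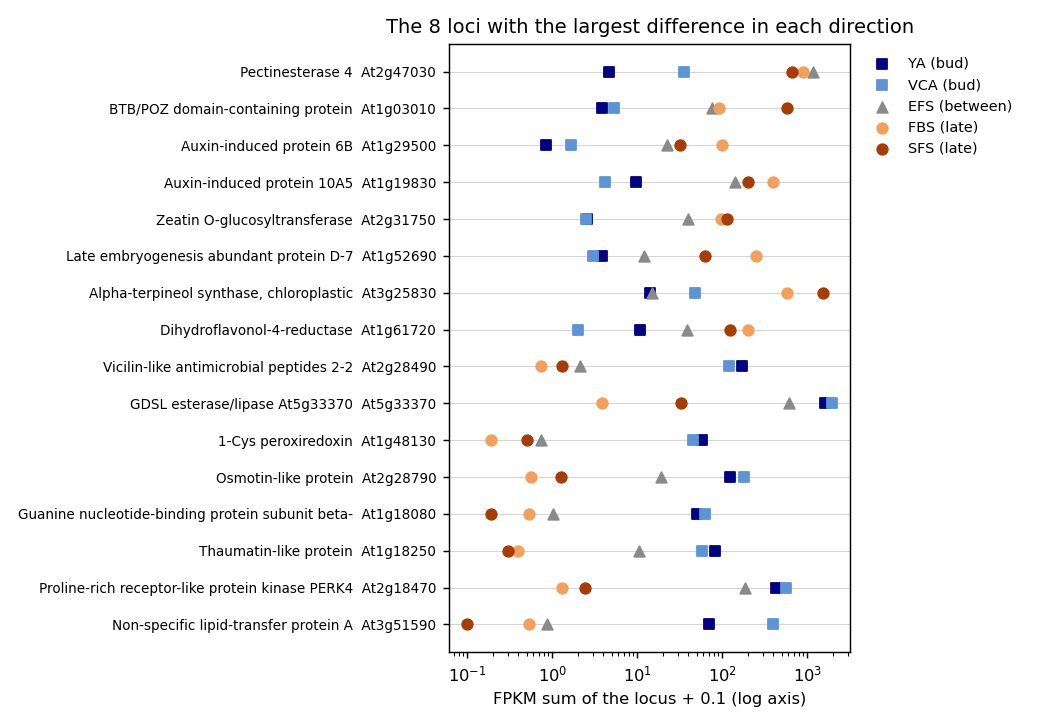
FPKM sum + 0.1 (logarithmic axis) of the 8 loci with the largest difference in each direction among those named in Swiss-Prot and with a level of 50 FPKM or more on the higher side, in YA and VCA (squares), EFS (triangles) and FBS and SFS (circles). In the upper 8 rows both circles lie right of both squares (Pectinesterase 4 at 903 and 672 FPKM against 4.55 and 35.8 FPKM), and in the lower 8 rows both lie left of them.

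Cell wall genes were called in both directions, with the higher loci among the most abundant. Of cell wall expansion and pectin genes, 32 of 117 loci were higher and 36 lower (scaled, 38 and 27), with a median log2 difference of -0.14 (scaled, 0.27). The higher share was 27.4%, against 11% of all loci, and the lower share 30.8%, near their 26.2%. The list summed to 19446 and 18890 FPKM in FBS and SFS, against 6368 and 6642 FPKM in YA and VCA, with 20460 FPKM in EFS. Xyloglucan endotransglucosylase/hydrolases cut and rejoin the xyloglucan tethers of the wall, and At5g13870 had 5632 and 5712 FPKM in FBS and SFS, against 306 and 241 FPKM in YA and VCA, with 1929 FPKM in EFS (log2 difference 4.38). Another, At4g37800, had 1462 and 1257 FPKM in FBS and SFS, against 233 and 114 FPKM in YA and VCA, with 325 FPKM in EFS (log2 difference 3.06). Expansin-A8 (At2g40610), which loosens the wall without cutting it, had 1876 and 1014 FPKM in FBS and SFS, against 217 and 166 FPKM in YA and VCA, with 1339 FPKM in EFS (log2 difference 2.86). Pectinesterases remove methyl groups from pectin, and Pectinesterase 4 (At2g47030), the first of the 8 largest rises as limited above, had 903 and 672 FPKM in FBS and SFS, against 4.55 and 35.8 FPKM in YA and VCA, with 1171 FPKM in EFS (log2 difference 5.92), and EFS was above both late libraries. Pectinesterase At4g33230 had 810.0 and 752 FPKM in FBS and SFS, against 158 and 216 FPKM in YA and VCA, with 1492 FPKM in EFS (log2 difference 2.08), again with EFS highest.

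Of fatty acid, cutin and wax genes, 8 of 59 loci were higher and 12 lower (scaled, 14 and 8), with a median log2 difference of -0.16 (scaled, 0.22), so 13.6% were higher and 20.3% lower, against 11% and 26.2% of all loci. The elongase 3-ketoacyl-CoA synthase 11 (At2g26640), which extends fatty acids for wax, had 277 and 406 FPKM in FBS and SFS, against 64.2 and 71.2 FPKM in YA and VCA (log2 difference 2.31). 3-ketoacyl-CoA synthase 6 (At1g68530), of the same family, had 199 and 455 FPKM in FBS and SFS, against 77.95 and 56.1 FPKM in YA and VCA (log2 difference 2.19). ECERIFERUM 1 (At2g37700), of the alkane-forming step, had 1125 and 650.1 FPKM in FBS and SFS, against 372 and 384 FPKM in YA and VCA (log2 difference 1.18), and was not called without FBS (0.78). WIN1 (At1g15360), a regulator of cuticle formation counted with the ethylene list by its name, was lower, at 13.96 and 3.86 FPKM in FBS and SFS, against 131 and 131 FPKM in YA and VCA, with 76.5 FPKM in EFS (log2 difference -4.14). Acyl carrier protein 1 (At4g25050) had 304 and 203 FPKM in FBS and SFS, against 548 and 671 FPKM in YA and VCA (log2 difference -1.29), but was not called without SFS (-0.997) or with median-ratio scaling (-0.87), and its highest unigene went the other way (1.11). Of lipases and fatty acid breakdown genes, 13 of 78 loci were higher and 24 lower (scaled, 20 and 19), with a median log2 difference of -0.11 (scaled, 0.32). The shares, 16.7% and 30.8%, were not far from the 11% and 26.2% of all loci. The GDSL esterases At2g04570 and At5g15720 differed by -3.75 and -3.27 on the log2 scale, while peroxisomal 3-ketoacyl-CoA thiolase 2 (At2g33150), of beta-oxidation, had 298 and 374 FPKM in FBS and SFS, against 156 and 123 FPKM in YA and VCA (log2 difference 1.27).

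Among all called loci, those with the highest late level, chosen after values were seen, were again lipid-transfer proteins. At5g59310 had 9193 and 14574 FPKM in FBS and SFS, against 774 and 1579.7 FPKM in YA and VCA, with 6373 FPKM in EFS (log2 difference 3.39). At5g59320 had 10802 and 12028 FPKM in FBS and SFS, against 3404 and 4072 FPKM in YA and VCA, with 6545 FPKM in EFS (log2 difference 1.61), so members of 1 family lay at both ends of the comparison, with lipid-transfer protein A as the largest fall. A type 2 metallothionein-like protein (At5g02380), a metal-binding protein also chosen after values were seen, had 7115 and 14054 FPKM in FBS and SFS, against 3159 and 2064 FPKM in YA and VCA, with 5555 FPKM in EFS (log2 difference 1.97).

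Auxin genes had more higher than lower loci. Of auxin genes, 28 of 71 loci were higher and 16 lower (scaled, 31 and 13), with a median log2 difference of 0.22 (scaled, 0.67), so 39.4% were higher and 22.5% lower, against 11% and 26.2% of all loci. Aux/IAA proteins repress auxin response genes, and Auxin-induced protein 22D (At5g43700) of this type had 540.0 and 339 FPKM in FBS and SFS, against 67.98 and 87.9 FPKM in YA and VCA, with 251 FPKM in EFS (log2 difference 2.47), although its highest unigene alone gave 0.28. AUX28 (At3g04730), of the same type, had 442 and 295 FPKM in FBS and SFS, against 88.4 and 58.5 FPKM in YA and VCA, with 150.2 FPKM in EFS (log2 difference 2.33). Small auxin-up RNA genes, early auxin response genes, were among the 8 largest rises: Auxin-induced protein 6B (At1g29500) had 99.1 and 31.5 FPKM in FBS and SFS, against 0.75 and 1.56 FPKM in YA and VCA, with 22.5 FPKM in EFS (log2 difference 5.56). At1g19830 had 394 and 202 FPKM in FBS and SFS, against 9.52 and 4.13 FPKM in YA and VCA, with 140.0 FPKM in EFS (log2 difference 5.47). The Swiss-Prot names of At1g19830 and At3g09870 rest on unigenes with 0.38% and 3.88% of their sums, and the KOG text of both names an auxin responsive protein. At3g09870 had 685 and 293 FPKM in FBS and SFS, against 131 and 209 FPKM in YA and VCA (log2 difference 1.44), and without FBS it was not called (0.82). The germin-like Auxin-binding protein ABP19a (At5g20630) was lower, at 142 and 105 FPKM in FBS and SFS, against 289.7 and 646 FPKM in YA and VCA (log2 difference -1.83).

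Of ethylene genes, 13 of 43 loci were higher and 9 lower (scaled, 15 and 8), with a median log2 difference of 0.09 (scaled, 0.51). Against 11% and 26.2% of all loci, 30.2% were higher and 20.9% lower. The enzyme of the last step, 1-aminocyclopropane-1-carboxylate oxidase (At1g05010), had 1162 and 1132 FPKM in FBS and SFS, against 181 and 98.7 FPKM in YA and VCA, with 456 FPKM in EFS (log2 difference 3.10). Its homolog At1g06650 had 434 and 374 FPKM in FBS and SFS, against 68.6 and 67.6 FPKM in YA and VCA (log2 difference 2.56). S-adenosylmethionine synthase 3 (At2g36880), which makes the precursor, was lower, at 65.3 and 65.2 FPKM in FBS and SFS, against 255 and 247 FPKM in YA and VCA (log2 difference -1.94). The ethylene response factor ERF114 (At5g61890) had 98.5 and 141 FPKM in FBS and SFS, against 9.09 and 3.45 FPKM in YA and VCA, with 12.6 FPKM in EFS (log2 difference 4.37), and the log2 difference of ERF113 (At5g13330) was 4.40. All FPKM of these ERF loci came from contigs of the same cluster (CL28492), and whether they are separate genes was not tested. Both were chosen after values were seen, and in both EFS was closer to the buds than to the late flowers. AINTEGUMENTA (At4g37750), an AP2-type factor of organ growth whose name matches the list by family only, had 3.62 and 15.2 FPKM in FBS and SFS, against 43.9 and 30.2 FPKM in YA and VCA (log2 difference -2.28), and was chosen in the same way.

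Other hormone lists were small. In gibberellin genes, 2 of 13 loci were higher and 5 lower (scaled, 3 and 5), with a median log2 difference of -0.31 (scaled, 0.10), so 15.4% were higher and 38.5% lower, against 11% and 26.2% of all loci. Gibberellin-regulated proteins 2, 6 and 14 (At4g09610, At5g15230 and At5g14920), small cysteine-rich secreted proteins, differed by -2.93, -3.20 and -2.31 on the log2 scale, the first with 28.98 and 30.5 FPKM in FBS and SFS, against 244 and 211 FPKM in YA and VCA (log2 difference -2.93). The repressor GAI (At1g14920), a DELLA protein, had 10.7 and 2.44 FPKM in FBS and SFS, against 26.3 and 60.4 FPKM in YA and VCA (log2 difference -2.94). The synthesis enzyme ent-kaurenoic acid oxidase 2 (At2g32440) was higher, at 185 and 226 FPKM in FBS and SFS, against 36.1 and 101 FPKM in YA and VCA (log2 difference 1.76). Also higher was the inactivating gibberellin 2-beta-dioxygenase (At1g30040), at 4.57 and 37.2 FPKM in FBS and SFS, against 2.25 and 1.69 FPKM in YA and VCA (log2 difference 2.69). Without SFS the call of this dioxygenase was lost, and it and GAI were chosen after values were seen. In jasmonate genes, 2 of 18 loci were higher and 5 lower (scaled, 3 and 5), with a median log2 difference of -0.39 (scaled, 0.03). These shares, 11.1% higher and 27.8% lower, were close to the 11% and 26.2% of all loci, and the median equalled theirs (-0.39). The 13-lipoxygenase At3g45140, of the first step, had 108 and 153 FPKM in FBS and SFS, against 453 and 891 FPKM in YA and VCA, with 901 FPKM in EFS (log2 difference -2.30). TIFY 9 (At5g13220), a repressor of jasmonate response, had 78.96 and 77.5 FPKM in FBS and SFS, against 313 and 434 FPKM in YA and VCA, with 348 FPKM in EFS (log2 difference -2.23). At4g15440, named allene oxide synthase although its KOG text names the related hydroperoxide lyase, had 9.69 and 40.6 FPKM in FBS and SFS, against 68.8 and 80.7 FPKM in YA and VCA (log2 difference -1.90), but was not called without FBS (-0.87). The 9-lipoxygenase At1g55020 was higher, at 143 and 51.9 FPKM in FBS and SFS, against 4.02 and 22.7 FPKM in YA and VCA (log2 difference 3.15).

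In cytokinin genes, 4 of 19 loci were higher and 1 lower (scaled, 8 and 0), with a median log2 difference of 0.30 (scaled, 0.71). The shares were 21.1% and 5.26%, against 11% and 26.2% of all loci. Cytokinin dehydrogenase 1 (At2g41510), which breaks cytokinin down, had 58.2 and 173 FPKM in FBS and SFS, against 9.30 and 12.6 FPKM in YA and VCA, with 5.74 FPKM in EFS (log2 difference 3.20). At2g31750, outside the list, is named after the cytokinin-conjugating zeatin O-glucosyltransferase, although its KOG text names UDP-glucosyl transferases more broadly. It was among the 8 largest rises at 97.2 and 114 FPKM in FBS and SFS, against 2.48 and 2.42 FPKM in YA and VCA, with 39.5 FPKM in EFS (log2 difference 5.37). Calls of the activating enzyme At5g11950 (0.89 without SFS, 0.97 without VCA) and of the clock-type regulator At5g02810 (0.91 without SFS) hung on 1 library. The name of the single lower locus, At1g50570, rests on a unigene with none of its FPKM, and its call was lost without VCA (-0.96). In abscisic acid genes, 2 of 13 loci were higher and 1 lower (scaled, 3 and 0), with a median log2 difference of 0.11 (scaled, 0.53). With so few loci, 15.4% were higher and 7.69% lower, against 11% and 26.2% of all loci. The receptor PYL1 (At4g17870) had 40.8 and 26.4 FPKM in FBS and SFS, against 6.75 and 7.43 FPKM in YA and VCA (log2 difference 2.20). The synthesis enzyme NCED3 (At3g14440) had 12.1 and 17.2 FPKM in FBS and SFS, against 4.88 and 1.72 FPKM in YA and VCA (log2 difference 2.27). The transcription factor At3g56850 (ABI5-like 2) had 12.4 and 11.5 FPKM in FBS and SFS, against 24.4 and 28.8 FPKM in YA and VCA (log2 difference -1.14), or -0.73 with median-ratio scaling, where it was not called.

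Of flavonoid and phenylpropanoid enzymes, 14 of 68 loci were higher and 8 lower (scaled, 20 and 6), with a median log2 difference of 0.00 (scaled, 0.42). Against 11% and 26.2% of all loci, 20.6% were higher and 11.8% lower. Most loci of the list, 46 of 68, were not called. Chalcone synthase (At5g13930), the entry step of the flavonoids, was among these, at 800.4 and 1188 FPKM in FBS and SFS, against 812 and 1476 FPKM in YA and VCA, with 518 FPKM in EFS (log2 difference -0.17), with the sides overlapping. So was the flavonoid 3'-monooxygenase locus At5g07990, at 407 and 292 FPKM in FBS and SFS, against 154 and 341 FPKM in YA and VCA, with 401 FPKM in EFS (log2 difference 0.59), again with overlap, and both were chosen after values were seen. Flavanone 3-dioxygenase (At3g51240), an early step, had 249 and 889.7 FPKM in FBS and SFS, against 157 and 139 FPKM in YA and VCA (log2 difference 1.67), and without SFS it was not called (0.75). Dihydroflavonol-4-reductase, a later step, was found at At5g42800, with 867 and 1065 FPKM in FBS and SFS, against 181 and 101 FPKM in YA and VCA, with 515 FPKM in EFS (log2 difference 2.83). Another locus with that Swiss-Prot name, At1g61720, had 202 and 125 FPKM in FBS and SFS, against 10.8 and 1.94 FPKM in YA and VCA, with 38.4 FPKM in EFS (log2 difference 5.08). Its leading unigene and that of At5g42800 are contigs of the same cluster (CL3560). The KOG text of both loci names flavonol and cinnamoyl-CoA reductases more broadly, so the name does not settle which reductase At1g61720 is. Leucoanthocyanidin dioxygenase (At4g22880), the next step, had 218 and 558 FPKM in FBS and SFS, against 87.9 and 80.1 FPKM in YA and VCA, with 131 FPKM in EFS (log2 difference 2.05). The locus At4g12300, also named flavonoid 3'-monooxygenase, had 168 and 438 FPKM in FBS and SFS, against 37.1 and 68.9 FPKM in YA and VCA (log2 difference 2.42). Its KOG text names a cytochrome P450 subfamily more broadly, so the name does not settle which enzyme At4g12300 is. The glucosyltransferase At4g15280 had 182 and 541 FPKM in FBS and SFS, against 95.9 and 104 FPKM in YA and VCA (log2 difference 1.65), and was not called without SFS (0.86). MYB113 (At1g66370), of the factors that switch on this pathway in Arabidopsis, had 101 and 149.6 FPKM in FBS and SFS, against 17.2 and 34.5 FPKM in YA and VCA (log2 difference 2.33). The At4g12300 locus, the glucosyltransferase and MYB113 were chosen after values were seen. Glutathione S-transferase F12 (At5g17220), of the type that helps carry anthocyanin to the vacuole and counted with the antioxidants, had 268 and 373 FPKM in FBS and SFS, against 101 and 79.98 FPKM in YA and VCA (log2 difference 1.82). Among phenylpropanoid genes, caffeic acid 3-O-methyltransferase 1 (At5g54160) was lower, at 192 and 228 FPKM in FBS and SFS, against 722 and 1108 FPKM in YA and VCA (log2 difference -2.09). Also lower was At1g20510, chosen after values were seen, at 9.01 and 7.32 FPKM in FBS and SFS, against 98.2 and 91.7 FPKM in YA and VCA (log2 difference -3.53). It is named 4-coumarate--CoA ligase-like 5, but its KOG text names acyl-CoA synthetases more broadly. The name therefore does not place it among phenylpropanoid genes.

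Of carotenoid and terpene enzymes, 7 of 28 loci were higher and 6 lower (scaled, 13 and 3), with a median log2 difference of 0.28 (scaled, 0.70). The higher share, 25%, was above the 11% of all loci, and the lower share, 21.4%, was near their 26.2%. The cleavage enzyme carotenoid 9,10(9',10')-cleavage dioxygenase 1 (At3g63520), which turns carotenoids into volatiles, had 428 and 375 FPKM in FBS and SFS, against 79.2 and 102 FPKM in YA and VCA, with 177 FPKM in EFS (log2 difference 2.16). Another cleavage enzyme, dioxygenase 4 (At4g19170), had 80.2 and 156 FPKM in FBS and SFS, against 70.7 and 17.5 FPKM in YA and VCA (log2 difference 1.66), and was not called without VCA (0.66). At5g05320, named zeaxanthin epoxidase although its KOG text names flavoprotein monooxygenases more broadly, had 271 and 137 FPKM in FBS and SFS, against 19.5 and 31.01 FPKM in YA and VCA (log2 difference 2.96). Phytoene synthase (At5g17230), the entry step, was lower, with 49.9 and 30.9 FPKM in FBS and SFS, against 98.5 and 120.4 FPKM in YA and VCA (log2 difference -1.47), and its highest unigene alone went the other way (0.92). Alpha-terpineol synthase (At3g25830), a monoterpene enzyme outside the list and among the 8 largest rises, had 576 and 1555 FPKM in FBS and SFS, against 14.04 and 47.9 FPKM in YA and VCA, with 14.97 FPKM in EFS (log2 difference 5.18), so EFS was still at bud level. Nerolidol synthase 1 (At1g61680), chosen after values were seen, had 676 and 3.29 FPKM in FBS and SFS, against 2.25 and 1.69 FPKM in YA and VCA, with 803 FPKM in EFS (log2 difference 4.54): EFS and FBS were the high libraries, and SFS was close to the buds, so that without FBS the difference was 0.72 and not called.

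Of sugar transport and sucrose cleavage genes, 9 of 43 loci were higher and 9 lower (scaled, 10 and 9), with a median log2 difference of -0.12 (scaled, 0.29). That is 20.9% in each direction, against 11% higher and 26.2% lower of all loci. The exporter SWEET3b (At5g53190) had 3737 and 4093 FPKM in FBS and SFS, against 417 and 666 FPKM in YA and VCA, with 1532 FPKM in EFS (log2 difference 2.89). Cell wall invertase (At3g52600), which splits sucrose outside the cell, had 143 and 177 FPKM in FBS and SFS, against 22.6 and 16.7 FPKM in YA and VCA, with 57.95 FPKM in EFS (log2 difference 3.03). Polyol transporter 5 (At3g18830) had 1055 and 1203 FPKM in FBS and SFS, against 545 and 479 FPKM in YA and VCA (log2 difference 1.14). The sugar transporter locus At5g50800, named SWEET16, had 223 and 7.78 FPKM in FBS and SFS, against 453 and 350.0 FPKM in YA and VCA (log2 difference -3.25). Its difference came mostly from SFS, and without SFS it was not called (-0.84). Of starch genes, 7 of 30 loci were higher and 7 lower (scaled, 8 and 5), with a median log2 difference of -0.35 (scaled, 0.06). The lower share, 23.3%, was close to the 26.2% of all loci, and the higher share, also 23.3%, was above their 11%. The 4 called loci with the highest level belonged to amylase families, which break starch down, and were higher. Beta-amylase 1 (At3g23920) had 787 and 528 FPKM in FBS and SFS, against 319.6 and 268 FPKM in YA and VCA (log2 difference 1.14). Beta-amylase 3 (At4g17090) had 421 and 199 FPKM in FBS and SFS, against 173 and 75.6 FPKM in YA and VCA (log2 difference 1.34). Alpha-amylase 3 (At1g69830) and inactive beta-amylase 9 (At5g18670) differed by 1.73 and 1.82 on the log2 scale. Without FBS beta-amylase 1 (0.85) and beta-amylase 3 (0.80) were not called, and without VCA beta-amylase 3 was not (0.74). An alpha-amylase at At4g25000, chosen after values were seen, had 31.2 and 81.7 FPKM in FBS and SFS, against 3.37 and 2.93 FPKM in YA and VCA, with 7.89 FPKM in EFS (log2 difference 3.96). The 7 lower starch loci were of lower level, with no value above 57.3 FPKM in the 4 libraries. The most abundant on the bud side, chosen in the same way, was granule-bound starch synthase 1 (At1g32900), at 11.5 and 12.1 FPKM in FBS and SFS, against 36.7 and 57.3 FPKM in YA and VCA, with 40.5 FPKM in EFS (log2 difference -1.95). Another beta-amylase locus, At4g15210, was the largest fall of the list at -4.80 on the log2 scale.

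Protease and autophagy genes were called in both directions. Of proteases and autophagy genes, 19 of 80 loci were higher and 26 lower (scaled, 27 and 20), with a median log2 difference of -0.11 (scaled, 0.30). These shares were 23.8% and 32.5%, against 11% and 26.2% of all loci. ATG8 proteins coat the autophagosome, and ATG8f (At3g60640) had 368 and 549 FPKM in FBS and SFS, against 84.9 and 75.3 FPKM in YA and VCA, with 182 FPKM in EFS (log2 difference 2.49). ATG8C (At1g62040) had 301 and 347 FPKM in FBS and SFS, against 139 and 148 FPKM in YA and VCA, with 191 FPKM in EFS (log2 difference 1.18), and its highest unigene alone gave 0.96, under the threshold. Cysteine proteinase 1 (At4g39090) had 384 and 822 FPKM in FBS and SFS, against 167 and 134 FPKM in YA and VCA (log2 difference 1.91). Vacuolar-processing enzyme (At4g32940), which activates vacuolar proteins, had 121 and 358 FPKM in FBS and SFS, against 58.6 and 77.8 FPKM in YA and VCA (log2 difference 1.62), though without SFS it was not called (0.84). The cysteine protease oryzain alpha (At1g47128) had 1400.2 and 1705 FPKM in FBS and SFS, against 366 and 336 FPKM in YA and VCA (log2 difference 2.14). Vignain (At5g50260), another, had 1579 and 3046 FPKM in FBS and SFS, against 1167 and 598 FPKM in YA and VCA (log2 difference 1.39), and was not called without VCA (0.91) or without SFS (0.92). The names of oryzain and vignain are not in the list's pattern, and both, like the processing enzyme, were chosen after values were seen. Ribonuclease 2 (At2g39780) had 401 and 342 FPKM in FBS and SFS, against 192 and 165 FPKM in YA and VCA (log2 difference 1.06), and leaving out FBS or VCA took it to 0.94. Of ubiquitin ligases and proteasome genes, 39 of 304 loci were higher and 41 lower (scaled, 63 and 17), with a median log2 difference of -0.12 (scaled, 0.31). The higher share, 12.8%, was close to the 11% of all loci, and the lower share, 13.5%, was below their 26.2%. Among the 8 largest rises was the BTB/POZ protein At1g03010, whose KOG text names a phototropin partner, at 92.2 and 584 FPKM in FBS and SFS, against 3.74 and 5.18 FPKM in YA and VCA, with 76.7 FPKM in EFS (log2 difference 5.69). The F-box protein At5g67140 had 223 and 188 FPKM in FBS and SFS, against 26.5 and 34.4 FPKM in YA and VCA (log2 difference 2.75). The ligase SINAT2 (At3g58040) and the F-box protein SKIP11 (At2g02870) differed by 1.48 and 1.15 on the log2 scale.

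Of light-harvesting and photosystem genes, 1 of 18 loci were higher and 1 lower (scaled, 1 and 1), with a median log2 difference of -0.18 (scaled, 0.22), so 5.56% were called in each direction, against 11% higher and 26.2% lower of all loci. The 1 higher locus was chlorophyll a-b binding protein E (At1g76570), at 25.6 and 38.2 FPKM in FBS and SFS, against 7.94 and 6.52 FPKM in YA and VCA (log2 difference 2.11), and the 1 lower locus, protein 7 (At1g19150), was not called without FBS (-0.85). In the Calvin cycle and photorespiration, 1 of 21 loci were higher and 2 lower (scaled, 3 and 2), with a median log2 difference of -0.10 (scaled, 0.31). Both shares, 4.76% and 9.52%, were below those of all loci. Serine hydroxymethyltransferase, which interconverts glycine and serine, went both ways. Its locus At4g32520 had 123 and 178 FPKM in FBS and SFS, against 64.1 and 57.5 FPKM in YA and VCA (log2 difference 1.28). Its locus At4g13930 had 213 and 90.8 FPKM in FBS and SFS, against 344 and 412 FPKM in YA and VCA (log2 difference -1.44), and was not called without SFS (-0.82). The H protein of glycine cleavage (At2g35120) differed by -2.21 on the log2 scale, or -0.64 on its highest unigene alone, which was not called. Among chlorophyll genes, pheophytinase, which removes the phytol tail, had 119 and 358 FPKM in FBS and SFS, against 52.5 and 29.01 FPKM in YA and VCA, with 51.4 FPKM in EFS (log2 difference 2.40) at At5g13800. The locus At4g36530, of the same name, had 46.4 and 57.6 FPKM in FBS and SFS, against 27.1 and 16.4 FPKM in YA and VCA (log2 difference 1.29), and was not called without VCA (0.93). The 3 lower loci of the list were synthesis enzymes. Porphobilinogen deaminase (At5g08280) had 38.8 and 40.5 FPKM in FBS and SFS, against 104 and 113 FPKM in YA and VCA (log2 difference -1.45). Glutamate-1-semialdehyde aminomutase (At3g48730), of an early step, differed by -1.07 and was not called without SFS (-0.80), without VCA (-0.82) or with median-ratio scaling (-0.66). Protochlorophyllide reductase (At5g54190), chosen after values were seen, had 3.14 and 1.93 FPKM in FBS and SFS, against 29.9 and 51.7 FPKM in YA and VCA (log2 difference -3.94). In the chlorophyll list as a whole, 25% of loci were higher and 18.8% lower, against 11% and 26.2% of all loci. These were 4 of 16 loci higher and 3 lower (scaled, 6 and 2), with a median log2 difference of -0.26 (scaled, 0.20). The other 9 were not called, with log2 differences from -0.99 (At2g40490) to 0.76 (At1g19670). Among these were At4g27440 at 0.47 and At1g58290 at 0.65, so the lower loci do not stand for the whole list.

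Mitochondrial and antioxidant genes were higher more often than lower. Of respiration genes, 7 of 40 loci were higher and 0 lower (scaled, 13 and 0), with a median log2 difference of -0.05 (scaled, 0.36). The higher share was 17.5%, against 11% of all loci, of which 26.2% were lower. The iron-sulfur subunit (At5g40650) and the flavoprotein subunit (At5g66760) of succinate dehydrogenase, which feeds electrons from the citric acid cycle, were both higher, and the first had 728 and 585 FPKM in FBS and SFS, against 139.7 and 135 FPKM in YA and VCA, with 229 FPKM in EFS (log2 difference 2.25). The flavoprotein subunit had 791 and 444 FPKM in FBS and SFS, against 209 and 218 FPKM in YA and VCA, with 292 FPKM in EFS (log2 difference 1.47). The complex I subunits At5g11770 and At5g08530 differed by 1.71 and 1.34 on the log2 scale, the At5g08530 locus by 0.57 on its highest unigene alone. Of antioxidants and glutathione transferases, 23 of 98 loci were higher and 12 lower (scaled, 37 and 7), with a median log2 difference of 0.22 (scaled, 0.67). Against 11% and 26.2% of all loci, 23.5% were higher and 12.2% lower. Phospholipid hydroperoxide glutathione peroxidase (At2g25080), which reduces lipid peroxides, had 2739 and 3278 FPKM in FBS and SFS, against 1288 and 1064 FPKM in YA and VCA, with 1778 FPKM in EFS (log2 difference 1.36). Thioredoxin H (At3g51030), a small redox protein, had 490.1 and 586 FPKM in FBS and SFS, against 209.7 and 214 FPKM in YA and VCA (log2 difference 1.34). The glutathione S-transferase At1g17180 had 412 and 464 FPKM in FBS and SFS, against 88.6 and 107 FPKM in YA and VCA (log2 difference 2.16). Of heat shock proteins and chaperones, 19 of 105 loci were higher and 17 lower (scaled, 29 and 7), with a median log2 difference of -0.13 (scaled, 0.31). The shares were 18.1% and 16.2%, against 11% and 26.2% of all loci. The chloroplast DnaJ protein At4g13830 had 611 and 791 FPKM in FBS and SFS, against 148 and 115 FPKM in YA and VCA (log2 difference 2.41). Another DnaJ homolog (At2g20560) differed by 1.73 on the log2 scale. The locus At1g18660, named after the co-chaperone HOP3 although its KOG text names a predicted ubiquitin ligase, had 249 and 271 FPKM in FBS and SFS, against 34.2 and 38.9 FPKM in YA and VCA (log2 difference 2.83). Luminal-binding protein 5 (At5g42020), the chaperone of the endoplasmic reticulum, was lower, at 101 and 59.9 FPKM in FBS and SFS, against 189 and 280.3 FPKM in YA and VCA (log2 difference -1.57).

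Of aquaporins, the water channels, 2 of 22 loci were higher and 7 lower (scaled, 4 and 6), with a median log2 difference of -0.68 (scaled, -0.27), so 9.09% were higher and 31.8% lower, close to the 11% and 26.2% of all loci. Of the tonoplast types, TIP2-1 (At3g16240) had 27.6 and 8.01 FPKM in FBS and SFS, against 213 and 262 FPKM in YA and VCA, with 112 FPKM in EFS (log2 difference -3.98). TIP1-3 (At4g01470) had 5.83 and 3.79 FPKM in FBS and SFS, against 86.8 and 104 FPKM in YA and VCA, with 10.3 FPKM in EFS (log2 difference -4.31). The 2 higher loci were SIP2-1, of internal membranes, and PIP2-2, of the plasma membrane, and EFS was highest in both. SIP2-1 (At3g56950) had 66.6 and 93.6 FPKM in FBS and SFS, against 37.8 and 25.6 FPKM in YA and VCA, with 121 FPKM in EFS (log2 difference 1.34). PIP2-2 (At2g37170) had 45.3 and 23.1 FPKM in FBS and SFS, against 17.8 and 12.9 FPKM in YA and VCA, with 52.3 FPKM in EFS (log2 difference 1.09). The PIP2-2 call was lost without FBS (0.60) and without VCA (0.86). Of the other transporters, 29 of 105 loci were higher and 22 lower (scaled, 34 and 14), with a median log2 difference of -0.03 (scaled, 0.44). Their shares were 27.6% and 21%, against 11% and 26.2% of all loci. ABC transporter C14 (At3g62700) had 464 and 509 FPKM in FBS and SFS, against 109 and 113 FPKM in YA and VCA (log2 difference 2.13). NRT1/PTR family 3.1 (At1g68570) had 403 and 276 FPKM in FBS and SFS, against 92.3 and 56.6 FPKM in YA and VCA (log2 difference 2.20). NRT1/PTR family 1.2 (At1g52190) differed by 1.43 on the log2 scale, and ABC transporter I19 (At1g03900) by 1.27, or by 0.72 without FBS, where it was not called.

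Signalling kinases and transcription factors were called lower at shares near that of all loci (26.2%). Their higher shares lay above the 11% of all loci, more so for the transcription factors. Of receptor and calcium signalling kinases, 42 of 284 loci were higher and 80 lower (scaled, 61 and 59), with a median log2 difference of -0.35 (scaled, 0.11), or 14.8% and 28.2%. The calcium sensor calmodulin-like 3 (At3g07490) had 345 and 374 FPKM in FBS and SFS, against 64.3 and 91.9 FPKM in YA and VCA, with 598 FPKM in EFS (log2 difference 2.22), with EFS highest. Calmodulin-1 (At5g49480) had 305 and 169 FPKM in FBS and SFS, against 51.7 and 50.7 FPKM in YA and VCA (log2 difference 2.14). CBL-interacting kinase 14 (At5g01820), which works with calcium sensors, differed by 1.32 on the log2 scale. Of MYB, WRKY, bHLH and zinc finger factors, 60 of 323 loci were higher and 91 lower (scaled, 81 and 55), with a median log2 difference of -0.31 (scaled, 0.20), or 18.6% and 28.2%. The MYB factor At3g13540, named CPC, had 187 and 207 FPKM in FBS and SFS, against 15.1 and 32.2 FPKM in YA and VCA, with 52.6 FPKM in EFS (log2 difference 3.15). The NAC factor At5g13180, named NAM-B2 from a unigene with 36.6% of its sum, had 147 and 231 FPKM in FBS and SFS, against 44.6 and 39.8 FPKM in YA and VCA, with 34.1 FPKM in EFS (log2 difference 2.12). The stress-associated zinc finger protein At3g52800 had 159 and 176 FPKM in FBS and SFS, against 59.96 and 39.7 FPKM in YA and VCA (log2 difference 1.78).

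For 3 called transcription factor loci the study's qPCR primers name a contig cluster in the table. They are printed, in lower case and without capitals because no part is singled out, to tie the values to sequences designed on these transcripts, and the loci were chosen after values were seen. The primers are given for each cluster in the order of the source list, which labels both primers of the first cluster as forward.
CL25724, first primer: taaggttcagaggaagcagagcc
CL25724, second primer: tgtgaaactgtcgtcaaaaggct
CL14811, forward: aaagacaaaggtgacgacaatgc
CL14811, reverse: tcctgaagatgaaccagagcact
CL8283, forward: ctccttcacctttgctgttttct
CL8283, reverse: ctggcattgtctgtcagtttgtt

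The first cluster holds the contig with the At-number of ABR1 (At5g64750), an ethylene response factor, whose locus had 11.4 and 13.5 FPKM in FBS and SFS, against 0.42 and 0.44 FPKM in YA and VCA, with 0.61 FPKM in EFS (log2 difference 4.56). That contig alone had 8.68 and 12.2 FPKM in FBS and SFS, against 0.15 and 0.30 FPKM in YA and VCA. The second is Scarecrow-like protein 3 (At1g50420), a GRAS factor of the gibberellin response, at 4.0 and 6.39 FPKM in FBS and SFS, against 13.1 and 10.5 FPKM in YA and VCA, with 12.3 FPKM in EFS (log2 difference -1.19), which was not called without FBS (-0.86) or with median-ratio scaling (-0.79). The third, bHLH49 (At1g68920), is a locus that sums more contigs than those of the cluster, and it had 319.8 and 269 FPKM in FBS and SFS, against 109 and 144 FPKM in YA and VCA, with 191 FPKM in EFS (log2 difference 1.23). The 4 contigs of the cluster with this At-number summed to 159 and 187 FPKM in FBS and SFS, against 19.8 and 17.6 FPKM in YA and VCA, so most of the bud value of the locus lay outside the cluster. The cluster counts 8 contigs that do not move alike: contig 4 had 81.9 and 101 FPKM in FBS and SFS, against 6.18 and 7.62 FPKM in YA and VCA, while contig 6 had 0.17 and 0.20 FPKM in FBS and SFS, against 7.61 and 4.45 FPKM in YA and VCA. The primers name the cluster and not a contig.

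Genes often taken as constant were lower in many cases. Of housekeeping genes, 1 of 27 loci were higher and 13 lower (scaled, 1 and 10), with a median log2 difference of -1.07 (scaled, -0.66), and the list summed to 5572 and 4263 FPKM in FBS and SFS, against 9526 and 9255 FPKM in YA and VCA. The 1 higher locus was At2g01440, named polyubiquitin 11 although its KOG text names an RNA helicase, at 30.8 and 34.2 FPKM in FBS and SFS, against 15.4 and 12.7 FPKM in YA and VCA (log2 difference 1.21).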

How the data were processed

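Total RNA of whole floral organs was isolated with TRIzol and sequenced on the Illumina platform, 1 library for each of 6 stages. The authors assembled the reads with Trinity without a reference genome, clustered contigs into unigenes, annotated them by database matches (Swiss-Prot and KOG were used here), and calculated FPKM with RSEM, so the deposited FPKM are corrected for transcript length and mapped reads and are given to 2 decimals. The sources give no tool versions, read numbers or trimming. The table holds no counts, so no count test was run, and with no replicates no test of any kind was run.

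The FPKM of YA, VCA, EFS, FBS and SFS were summed over the unigenes whose KOG match starts with the same At-number. These unigenes held between 67.8% and 70.3% of the FPKM of a library. Loci were called by the rule given at the start of the report, with a pseudocount of 0.1, a minimum sum of 5 FPKM and a fold of 2. Of the tested loci, 1399 had no Swiss-Prot name and could enter no list. The comparison, its members and the 33 lists were chosen with earlier results of these data known. Lists are text patterns over Swiss-Prot names, corrected after values were seen where a pattern caught names that did not belong. Loci whose At-number belongs to another family may remain in a list. Loci named in the text are the 8 with the largest difference in each direction among loci named in Swiss-Prot that reached a level of 50 FPKM on the higher side, up to 4 called loci with the highest level per list, and others said to be chosen after values were seen. Levels of different loci are compared per length, as FPKM.

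Alternatives were the pseudocount, the minimum, the fold, scaling, the highest unigene, the sum per Swiss-Prot entry or KOG group, EFS as a late library, libraries left out, and a rescaling without ribosomal proteins and histones. Calculations used Python 3.11.15, numpy 2.4.6 and pandas 2.3.3, and figures matplotlib 3.10.9. The calling step was tested on simulated data.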

Additional observations from a re-analysis of the deposited data

How the results depend on the processing

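The counts of 940 higher and 2249 lower loci stayed within 1.5 times under a pseudocount of 1 or 0.01, a minimum sum of 1 or none, scaling by the total FPKM, the highest unigene, the sum per Swiss-Prot entry and EFS added to the late side. With 1 library left out at a time they ranged from 973 to 1110 higher and from 2018 to 2754 lower loci. A minimum sum of 20 FPKM gave 1267 lower loci among fewer loci tested (5618), and a fold of 4 gave 396 higher and 807 lower loci, as a stricter threshold must. With median-ratio scaling, 1483 loci were higher and 1400 lower, so the share of calls that were higher was 51.4%, against 29.5% as deposited, and the cause was not tested. Both alternatives added after the data were seen kept fewer higher than lower loci: the sum per KOG group gave 197 and 785 among 3474 groups, and the table without ribosomal proteins and histones, rescaled to the same total, gave 766 and 2621. Of the 163 called loci followed singly, 76 kept their call under all the alternatives run for them. On the highest unigene alone the log2 difference reversed for histone H4 (At1g07660, 0.64), phytoene synthase (At5g17230, 0.92) and acyl carrier protein 1 (At4g25050, 1.11). Among counts within lists, 871 of 1118 comparisons with an alternative stayed within 1.5 times. No paired analysis was possible because each stage has a single library. With 1 library a stage and unknown depth, differences between stages and between plants cannot be told apart.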

Other observations

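Unigenes without an At-number held between 29.7% and 32.2% of the FPKM of a library. Those of them with a Swiss-Prot entry, between 11.3% and 13.1% of the FPKM, were summed per entry instead, and 1227 entries reached 5 FPKM in at least 1 of the 4 libraries. Of these, 134 were higher (10.9%) and 269 lower (21.9%) in late flowers by the same rule. The examples are among the 8 with the largest difference in each direction and a level of 50 FPKM or more on the higher side.

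Among the higher entries, alternative oxidase, which passes electrons from ubiquinol to oxygen past the cytochrome pathway, appeared under 2 entries. Ubiquinol oxidase 1a had 153 and 61.5 FPKM in FBS and SFS, against 8.07 and 7.16 FPKM in YA and VCA, with 12.2 FPKM in EFS. Ubiquinol oxidase 2 had 80.0 and 109 FPKM in FBS and SFS, against 8.78 and 9.0 FPKM in YA and VCA. Defensin-like protein 4, of a family of small secreted defence peptides, had 140 and 2670 FPKM in FBS and SFS, against 45.3 and 58.1 FPKM in YA and VCA, so its late level rests on SFS. Defensin-like protein 3 had 94.2 and 184 FPKM in FBS and SFS, against 15.4 and 3.93 FPKM in YA and VCA. The LEA protein Lea5 had 577 and 765 FPKM in FBS and SFS, against 9.86 and 61.4 FPKM in YA and VCA, and EFS was already at 675 FPKM. Stress enhanced protein 2, a chloroplast protein related to the light-harvesting family, had 136 and 134 FPKM in FBS and SFS, against 6.45 and 2.36 FPKM in YA and VCA.

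Among the lower entries, 3 were named histone H4 or a variant of it, and the maize-named one had 5.72 and 2.43 FPKM in FBS and SFS, against 613 and 796 FPKM in YA and VCA. The desiccation-related protein PCC13-62 had 0.20 and 0.81 FPKM in FBS and SFS, against 156 and 81.6 FPKM in YA and VCA. A mannose-specific lectin, a sugar-binding protein of storage tissue in snowdrop, had 15.7 and 114 FPKM in FBS and SFS, against 1508 and 922 FPKM in YA and VCA. The lipid-transfer protein DIR1, known from systemic resistance in Arabidopsis, had 5.67 and 7.06 FPKM in FBS and SFS, against 158 and 308 FPKM in YA and VCA.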
